A study of Mus musculus with 15 samples.

Results

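Insulin-like growth factor 1 (Igf1), the 2 IGF receptors Igf1r and Igf2r and the 6 IGF binding proteins Igfbp2, Igfbp3, Igfbp4, Igfbp5, Igfbp6 and Igfbp7 were followed in left ventricle RNA of sham-operated and infarcted mouse hearts. These 9 genes were taken by gene name from a deposited table of 54532 genes, and each name occurred once. Igf1 and Igfbp7 transcripts were higher in infarcted than in sham hearts and Igfbp2 was higher at a low level, whereas Igf1r, Igf2r and Igfbp3 to Igfbp6 did not pass the test. No member passed the genome-wide test between treated and vehicle-treated infarcted hearts. Igfbp2, which was too low for that test, was lower in treated hearts by an exact permutation test of that gene alone. Fitted by limma without a filter on low values, this Igfbp2 difference did not pass (adjusted p = 0.156).

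IGF1 is a secreted growth factor that binds the receptor tyrosine kinase IGF1R, which signals through insulin receptor substrates to PI3K, AKT and mTOR and restrains FOXO transcription factors. IGF2R, the cation-independent mannose 6-phosphate receptor, carries IGF2 and lysosomal enzymes into the cell and has no kinase domain. The binding proteins hold IGFs outside the cell, can block or prolong their action and are cut by secreted proteases; IGFBP7 binds IGFs weakly and is often treated as an IGFBP-related protein. In the heart, IGF1 signalling is known for its part in physiological growth and survival of cardiomyocytes.

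The study compared 3 groups of 5 libraries from female C57BL/6JRj mice aged 12 to 18 weeks. MI hearts had the left descending coronary artery tied off for good, and Sham hearts had the sham operation. GSK hearts came from mice given GSK-343, an inhibitor of the H3K27 methyltransferase EZH2, at 20 mg/kg by daily intraperitoneal injection from 6 h after surgery to day 7, in 20% Captisol. Control mice received vehicle, and left ventricles were taken on day 8. The GSK sample names give only the compound, and that these hearts were infarcted is taken from the treatment protocol. No group received GSK-343 without an infarct. Sham replicates 1 and 2 each mixed RNA of 2 animals. The animal name S5 occurs both in the mixed Sham replicate 2 and in MI replicate 3. Each heart was taken once, on day 8, so by the design it can belong to only 1 of these groups. The column names of the 2 libraries are also written in different forms. Those forms run in part with group, and what they stand for is not given.

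Between 21.5 M and 26.8 M fragments fell on genes in a library. Each value is the number of fragments per kilobase of gene length, divided by a scaling total of the library (FPKM). Levels can therefore be compared between genes. A member other than Igfbp2 rested on 283 to 25552 fragments per library, and Igfbp2 on 0 to 89. The share of the summed FPKM held by mitochondrial genes set 3 libraries apart: it was 40.6% in MI replicate 4 against 23.2% to 27.6% in the other MI libraries, and 46.4% and 48.7% in GSK replicates 3 and 4 against 31.8% to 32.7% in the other GSK libraries. Sham libraries held 41.2% to 42.2%. The values of Igf1, Igfbp2 and Igfbp7, and others that these 3 libraries move past the threshold, are also given without them. Differences below are on the scale of log2(FPKM + 1) with their standard error (SE) and were tested with limma across the 12585 genes that reached 1 FPKM in at least 5 of the 15 libraries, and calls were made where p, after Benjamini-Hochberg adjustment, was under 0.05. Adding 1 to each value understates the change of genes near 1 FPKM. The 8 members other than Igfbp2 were among the genes tested.

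Igfbp7 was the most abundant member in every library of each group, and Igfbp2 the least abundant. In Sham hearts the mean level was 194 ± 29.7 FPKM for Igfbp7 (SD, n = 5), 38.7 ± 4.96 for Igfbp5, 37.9 ± 5.44 for Igfbp4, 22.5 ± 3.15 for Igf2r, 20.1 ± 3.92 for Igfbp6 and 18.4 ± 2.81 for Igfbp3. Igf1 at 2.38 ± 0.474 FPKM, Igf1r at 1.93 ± 0.132 and Igfbp2 at 0.187 ± 0.0751 lay well under these. Neighbours in the middle of this order were not separated: Igfbp5 exceeded Igfbp4 in 2 of 5 Sham libraries, while Igf2r exceeded Igfbp6, and Igfbp6 exceeded Igfbp3, in 4 of 5. In MI hearts Igfbp4 came second, above Igfbp5 in 4 of 5 libraries, and Igfbp3, Igfbp6 and Igf2r followed without a fixed order, Igfbp3 exceeding Igfbp6 in 2 of 5 libraries and Igfbp6 exceeding Igf2r in 3 of 5. In GSK hearts Igfbp4 exceeded Igfbp5 in 4 of 5 libraries, Igfbp5 exceeded Igfbp6 in 4 of 5, and Igfbp6 exceeded Igf2r in 2 of 5. Igf1 ranked above Igf1r in every library.

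**Figure D1:**
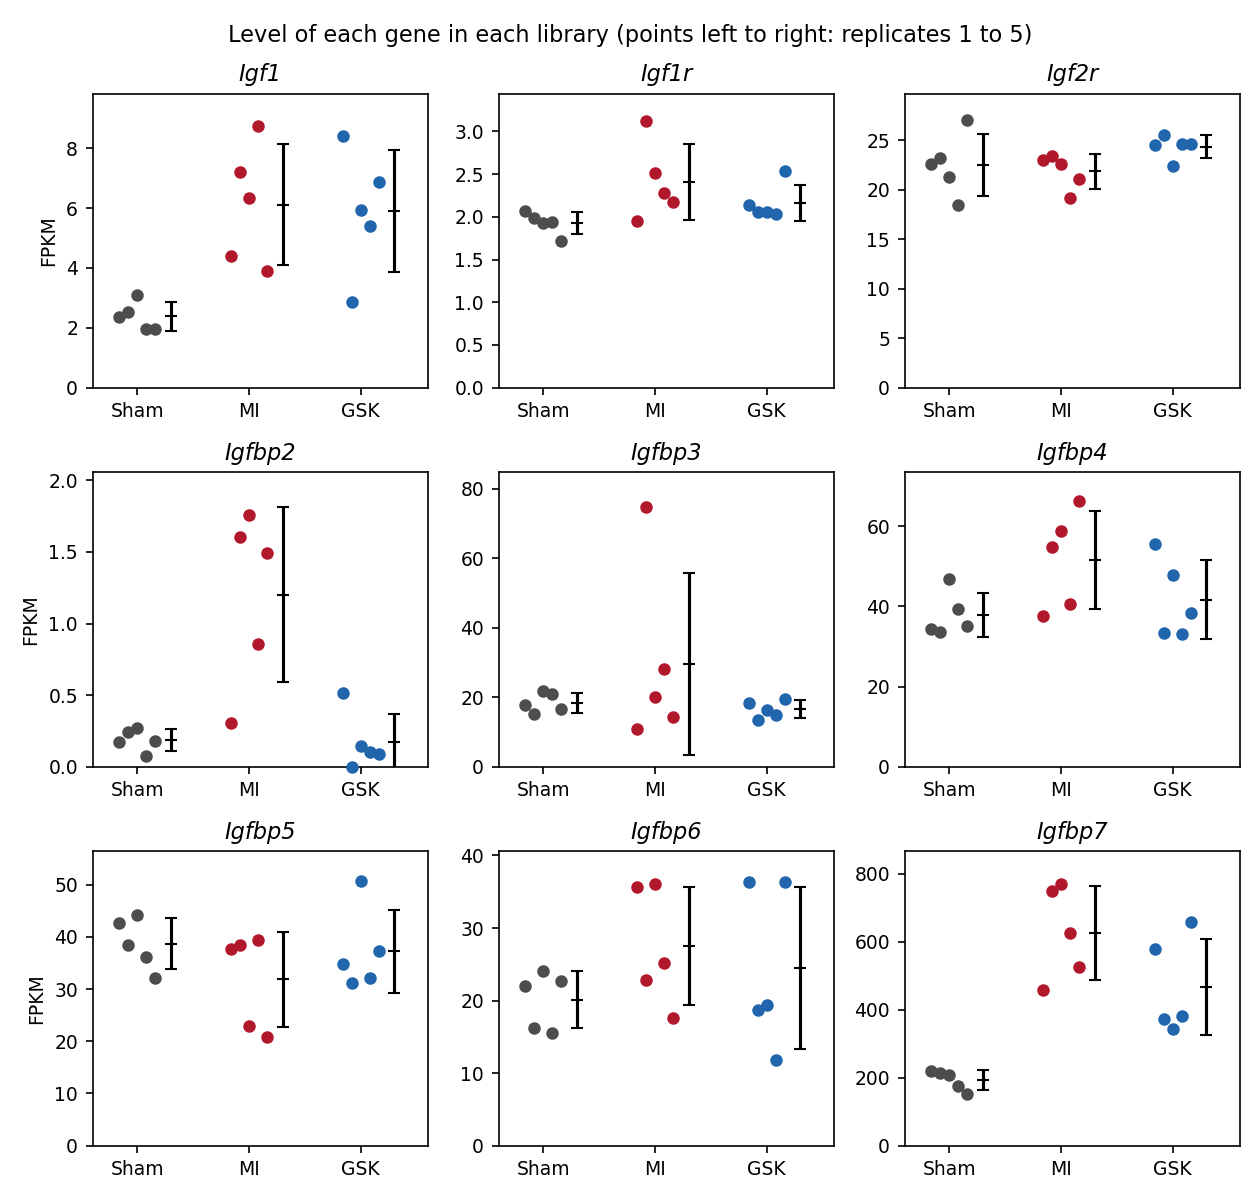
FPKM of the 9 genes in each of the 15 libraries, with replicates 1 to 5 of Sham, MI and GSK drawn from left to right as points, and the mean with its SD as a bar beside them; each panel has its own axis, which starts at 0. The MI points of Igf1, Igfbp2 and Igfbp7 lie above every Sham point, and MI replicate 2 stands alone in Igfbp3 at 74.8 FPKM.

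Infarction came with more Igf1 transcript. Igf1 (ENSMUSG00000020053; mm10 chr10:87858265-87937042, plus strand) stood at 2.37, 2.54, 3.09, 1.95 and 1.96 FPKM in Sham replicates 1 to 5 and at 4.41, 7.21, 6.34, 8.76 and 3.88 in MI replicates 1 to 5. Every MI library lay above every Sham library, and the MI libraries spread more widely than the Sham libraries. The difference MI minus Sham was 1.04 ± 0.22 (SE; 95% interval 0.57 to 1.51), with a limma adjusted p of 0.00168. Without MI replicate 4, GSK replicate 3 and GSK replicate 4 it was 0.91 ± 0.24 with an adjusted p of 0.00866.

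The GSK libraries held 8.42, 2.86, 5.95, 5.40 and 6.86 FPKM of Igf1. They overlapped the MI libraries, and GSK replicate 2 lay below Sham replicate 3 while the other 4 GSK libraries lay above every Sham library. GSK minus MI was -0.06 ± 0.22 (95% interval -0.53 to 0.41; limma adjusted p = 0.902), an interval that reaches about as far in either direction. GSK minus Sham was 0.98 ± 0.22 (limma adjusted p = 0.00889), or 0.97 (adjusted p = 0.0224) without the 3 libraries of high mitochondrial share. Both comparisons with GSK share their 5 treated libraries. The annotated antisense gene Igf1os lies within the Igf1 locus on the other strand; it held at most 0.126 FPKM in any library. Whether counting used strand is not given in the sources used here, so reads of overlapping genes on opposite strands cannot be told apart.

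Neither receptor passed the test. Igf1r (ENSMUSG00000005533; mm10 chr7:67952827-68233668, plus strand), the signalling receptor, stood at 2.07, 1.99, 1.93, 1.94 and 1.71 FPKM in Sham, at 1.96, 3.12, 2.52, 2.28 and 2.18 in MI, and at 2.14, 2.06, 2.06, 2.04 and 2.53 in GSK libraries. The ranges of Sham and MI overlapped through MI replicate 1 alone, since the other 4 MI libraries lay above the highest Sham library. MI minus Sham was 0.21 ± 0.08 (95% interval 0.03 to 0.39), with an unadjusted p of 0.0238 and an adjusted p of 0.0534 by limma. Igf1r passed the threshold under some other settings. The difference was 0.31 (adjusted p = 0.0383) with limma's voom on recovered fragments. It was 0.27 (limma adjusted p = 0.0343) with mitochondrial genes left out and the totals of the other genes made equal across libraries. That setting changes the scaling of all genes as well. GSK minus MI was -0.10 ± 0.08 (limma adjusted p = 0.505) and GSK minus Sham 0.11 (adjusted p = 0.366).

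Igf2r (ENSMUSG00000023830; mm10 chr17:12682406-12769664, minus strand), the clearance receptor, was far more abundant per length than Igf1r. It measured 22.6, 23.2, 21.3, 18.4 and 27.1 FPKM in Sham, 23.1, 23.4, 22.6, 19.2 and 21.1 in MI, and 24.5, 25.6, 22.4, 24.7 and 24.7 in GSK libraries. MI and Sham overlapped widely, and GSK and MI overlapped through GSK replicate 3 alone, since the other 4 GSK libraries lay above the highest MI library. MI minus Sham was -0.03 ± 0.09 (95% interval -0.23 to 0.16; limma adjusted p = 0.786), and GSK minus MI was 0.15 ± 0.09 (adjusted p = 0.354). Its locus overlaps 28354 bases of Airn, the antisense noncoding RNA of this imprinted region, which held 4.60 ± 0.728 FPKM in Sham and 4.15 ± 0.631 in MI (SD, n = 5 each; limma adjusted p = 0.399).

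Igfbp7 had the largest rise among the members tested. Igfbp7 (ENSMUSG00000036256; mm10 chr5:77349240-77408041, minus strand), a secreted protein of vessel walls and stroma, stood at 220, 215, 209, 177 and 151 FPKM in Sham and at 457, 750, 771, 627 and 525 in MI libraries. The lowest MI library, at 457 FPKM, lay well above the highest Sham library at 220. MI minus Sham was 1.67 ± 0.20 (95% interval 1.24 to 2.10; limma adjusted p = 3.96e-05), a fold of 3.18. Without MI replicate 4 and GSK replicates 3 and 4 the difference was 1.66 ± 0.21 (adjusted p = 0.000123).

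In GSK libraries Igfbp7 measured 580, 374, 345, 382 and 658 FPKM. All 5 lay above the highest Sham library, and replicates 2, 3 and 4 lay below the lowest MI library while replicates 1 and 5 lay among the MI libraries. GSK minus Sham was 1.23 ± 0.20 (limma adjusted p = 0.00148), or 1.44 (adjusted p = 0.00191) without the 3 libraries of high mitochondrial share. GSK minus MI was -0.44 ± 0.20 (95% interval -0.87 to -0.01), with an unadjusted p of 0.0463 and an adjusted p of 0.231 by limma. Without the 3 libraries of high mitochondrial share it was -0.22 ± 0.24 (adjusted p = 0.761), and 2 of the 3 GSK libraries below the MI range are among those left out. The Igfbp7 locus overlaps Gm34648 by 7085 bases, a gene with at most 0.497 FPKM in any library, and the neighbouring gene Polr2b by 85 bases. Polr2b held 14.3 FPKM in Sham and 12.4 in MI.

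Igfbp2 was higher in MI hearts than in Sham hearts, at a level close to the counting limit. Its mean was also higher in MI than in GSK hearts, but whether that difference passed depended on the test and the libraries used. Igfbp2 (ENSMUSG00000039323; mm10 chr1:72824503-72852474, plus strand), a binding protein best known from development, liver and tumours, rested on 7, 11, 11, 3 and 7 fragments in Sham, 15, 83, 89, 33 and 71 in MI, and 26, 0, 6, 4 and 4 in GSK libraries. In FPKM these were 0.171, 0.239, 0.272, 0.0766 and 0.176 in Sham, 0.302, 1.61, 1.76, 0.854 and 1.49 in MI, and 0.514, 0, 0.148, 0.101 and 0.0853 in GSK libraries; the count of 0 allows up to 3 fragments, or 0.0681 FPKM, counting error only. Every MI library lay above every Sham library, and every GSK library except replicate 1 lay below the lowest MI library. Igfbp2 reached 1 FPKM in 3 libraries, all MI, and so was not in the genome-wide test.

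By exact two-sided permutation tests of the 252 assignments of 5 libraries against 5, Igfbp2 was higher in MI than in Sham by 0.84 (p = 0.00794, the smallest this design can give; 0.0238 adjusted over the 3 comparisons). The ratio of the MI mean to the Sham mean was 6.43. GSK was lower than MI by an exact permutation test, with a difference of -0.88 (p = 0.0159; adjusted over the 3 comparisons, 0.0238). GSK minus Sham was -0.03 (exact permutation p = 0.810). Fitted by limma without a filter on low values, MI minus Sham had an adjusted p of 0.00438, but GSK minus MI had an adjusted p of 0.156. Without MI replicate 4 and GSK replicates 3 and 4, Igfbp2 was higher in MI than in Sham by 0.89 (exact permutation p = 0.00794). The difference GSK minus MI was then -0.90 (exact permutation p = 0.0857), with only 3 libraries against 4. GSK minus Sham was -0.00614.

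The sequences just upstream of Igfbp7 and Igfbp2 are shown because these 2 genes had the largest ratios of mean FPKM between MI and Sham hearts among the members and because the treatment acts on a mark often found at CpG-rich promoters; the data hold no measurement of that mark. They are the 250 bases before the start of each gene in RefSeq on GRCm38.p6, written in lower case with each CG in capitals. The first is chr5:77408046-77408295 on the minus strand with 26 CG, and the second is chr1:72824230-72824479 on the plus strand with 14 CG.
Igfbp7: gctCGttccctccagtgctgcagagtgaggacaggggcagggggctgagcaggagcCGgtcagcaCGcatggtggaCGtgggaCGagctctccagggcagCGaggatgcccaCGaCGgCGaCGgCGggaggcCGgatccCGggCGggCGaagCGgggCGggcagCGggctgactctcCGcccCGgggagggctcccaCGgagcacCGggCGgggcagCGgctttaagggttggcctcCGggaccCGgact
Igfbp2: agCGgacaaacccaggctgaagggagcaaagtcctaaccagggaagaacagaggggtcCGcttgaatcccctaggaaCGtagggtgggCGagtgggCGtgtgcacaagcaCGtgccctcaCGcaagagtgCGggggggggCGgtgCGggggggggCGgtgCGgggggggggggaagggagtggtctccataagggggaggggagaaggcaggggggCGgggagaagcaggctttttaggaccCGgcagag

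All 9 members had a RefSeq window of 250 bases before to 50 bases after a gene start, and Igfbp2 had a pair of them. The motif CG, which reads the same on both strands, occurred 48 times in the window of Igf1r, 37 in Igfbp3, 34 in Igf2r, 33 in Igfbp7 and 27 in Igfbp4, against a median of 7 over all 32851 windows. It occurred 18 and 14 times in the windows of Igfbp2, 10 times in Igfbp5, 8 in Igfbp6 and 6 in Igf1. As many CG as Igfbp7 were found in 8.56% of all windows, and as many as Igf1 in 56.4%. The called genes Igf1 and Igfbp7 differed widely in this feature, and uncalled members ranged from 8 to 48. TATAAA, searched on both strands, was found in the windows of Igfbp4 and Igfbp6 and in 13.6% of all windows. The Igf1 window and the Igfbp2 window of 14 CG lie inside their genes of the deposited table, so each belongs to an internal start. The Igfbp7 window spans the gene start, so its count and that of Igf1 come from unlike positions.

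Igfbp3 to Igfbp6 did not pass the test in any of the 3 comparisons. Igfbp4 (ENSMUSG00000017493; mm10 chr11:99041244-99054392, plus strand), which is cut by the protease PAPP-A to release IGF, measured 34.5, 33.6, 46.8, 39.5 and 35.2 FPKM in Sham and 37.5, 54.9, 58.7, 40.7 and 66.3 in MI libraries. The groups overlapped, with MI replicates 2, 3 and 5 above the highest Sham library. MI minus Sham was 0.41 ± 0.18 (limma adjusted p = 0.0667); without the 3 libraries of high mitochondrial share it was 0.49 and passed the threshold (adjusted p = 0.0431). GSK libraries held 55.7, 33.4, 47.9, 33.1 and 38.4 FPKM, and GSK minus MI was -0.30 ± 0.18 (limma adjusted p = 0.334).

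Igfbp5 (ENSMUSG00000026185; mm10 chr1:72857932-72874884, minus strand), which binds matrix as well as IGFs, was the one binding protein with a lower mean in MI than in Sham. It measured 42.7, 38.4, 44.3, 36.1 and 32.0 FPKM in Sham and 37.7, 38.4, 23.0, 39.4 and 20.9 in MI libraries. MI replicates 3 and 5 lay below every Sham library and the other 3 within the Sham range. The difference was -0.31 ± 0.19 (limma adjusted p = 0.183). GSK libraries, at 31.2 to 50.7 FPKM, covered the Sham range, with GSK minus MI at 0.25 ± 0.19 (adjusted p = 0.453). Igfbp5 lies tail to tail with Igfbp2 on chromosome 1, with 5457 bases between the 2 genes.

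Igfbp3 and Igfbp6 spread more widely in MI than in Sham hearts. Igfbp3 (ENSMUSG00000020427; mm10 chr11:7206086-7213923, minus strand), the main carrier of IGF1 in blood, measured 17.6, 15.1, 21.7, 20.9 and 16.6 FPKM in Sham, 10.7, 74.8, 20.0, 28.0 and 14.2 in MI, and from 13.3 to 19.6 in GSK libraries. MI replicate 2 was far above all others. MI minus Sham was 0.33 ± 0.36 (limma adjusted p = 0.467), and without MI replicate 2 it was -0.08. Igfbp6 (ENSMUSG00000023046; mm10 chr15:102144362-102149511, plus strand), which prefers IGF2, ranged from 15.6 to 24.1 FPKM in Sham, from 17.6 to 36.1 in MI and from 11.8 to 36.3 in GSK libraries. Its groups overlapped in every comparison, with MI minus Sham at 0.40 ± 0.28 (limma adjusted p = 0.25) and GSK minus MI at -0.23 ± 0.28 (adjusted p = 0.652).

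Counted together, 2 of the 8 members tested were called in MI minus Sham, both higher, where 43.8% of all genes tested were called and 21.9% were called higher. That is near the share of all genes for calls in the higher direction. In 3 of the 9 members, Igf1, Igfbp2 and Igfbp7, the MI and Sham libraries did not overlap, against 29.8% of genes tested and 14.9% of all genes with a value. The median difference over the 8 tested members was 0.37, and over all genes tested -0.02. With mitochondrial genes left out and the totals of the other genes made equal, Igf1r and Igfbp4 were called as well, making 4 of 8. The calls over all genes moved from 2757 higher and 2758 lower to 3314 higher and 2094 lower, and the median over all genes to 0.05. Leaving out these genes and changing the scaling cannot be told apart in that setting.

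In GSK minus MI no member was called, and 0.0% of the 12585 genes were: limma called 0 genes at the adjusted threshold, 2638 had an unadjusted p under 0.05, and limma's voom on recovered fragments called 2. The smallest adjusted p of any gene was 0.0536. No member had GSK and MI libraries that did not overlap, against 2.01% of genes tested. In GSK minus Sham, 2 of 8 members were called, both higher, against 18.3% of genes called and 10.8% called higher. Igfbp7 alone had no overlap there, against 18.4% of genes. The 3 comparisons share groups in pairs, so they are not independent of each other.

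**Figure D2:**
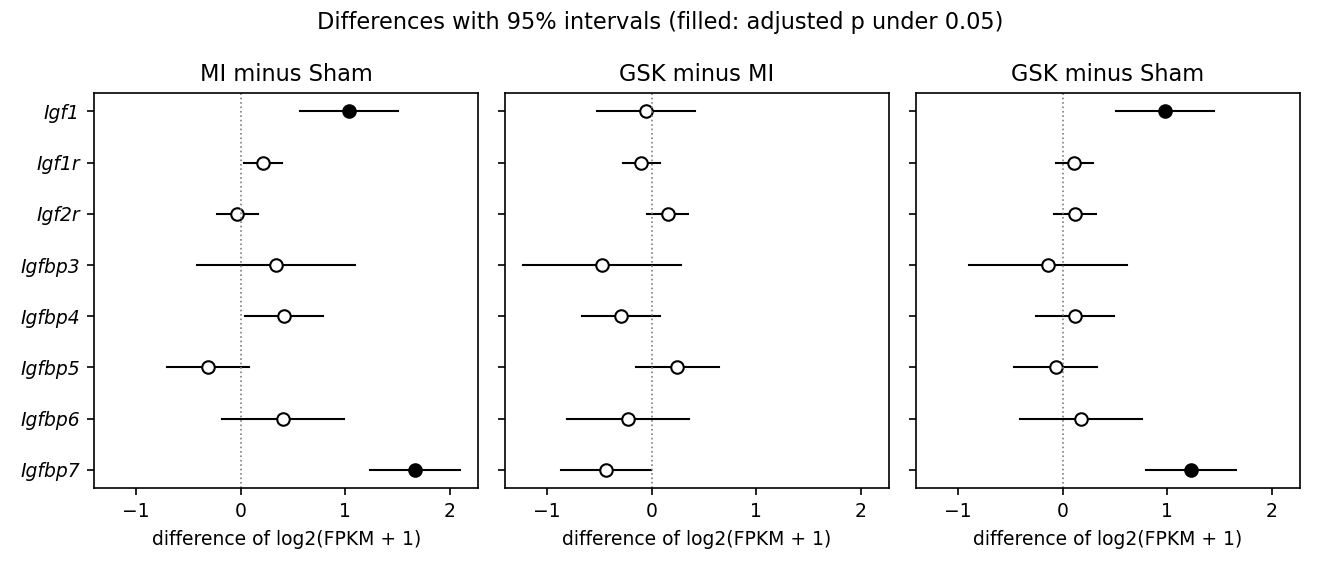
Difference of log2(FPKM + 1) for the 8 tested members in MI minus Sham, GSK minus MI and GSK minus Sham; points are limma estimates from 5 libraries a group, lines their 95% intervals, and filled points passed the adjusted p threshold of 0.05. Igf1 and Igfbp7 are filled in both comparisons with Sham (1.04 and 1.67 in MI minus Sham), and no point is filled in GSK minus MI.

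The make-up of the binding protein transcripts shifted toward Igfbp7. Summed over the 6 binding proteins, the level was 310 ± 36.5 FPKM in Sham, 768 ± 159 in MI and 588 ± 157 in GSK libraries (SD, n = 5 each). Igfbp7 made up 62.6% ± 3.68 of that sum in Sham (58.6% to 67.5%), 81.4% ± 2.29 in MI (78.9% to 84.7%) and 79.0% ± 4.25 in GSK libraries (71.9% to 83.3%). The Sham shares lay below all shares of the infarcted hearts, and the MI and GSK shares overlapped. Without the 3 libraries of high mitochondrial share the sum was 769 ± 184 FPKM in MI (n = 4) and 662 ± 169 in GSK libraries (n = 3), and the Igfbp7 share was 81.1% ± 2.57 and 80.9% ± 2.10. Igfbp5 made up 12.5% ± 0.276 in Sham, 4.30% ± 1.58 in MI and 6.70% ± 2.38 in GSK libraries. Leaving Igfbp7 out, the sum was 115 ± 13.2 FPKM in Sham, 142 ± 29.5 in MI and 120.1 ± 24.1 in GSK libraries, so these ranges overlapped. These sums describe transcript and not the amount of protein able to bind IGF.

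**Figure D3:**
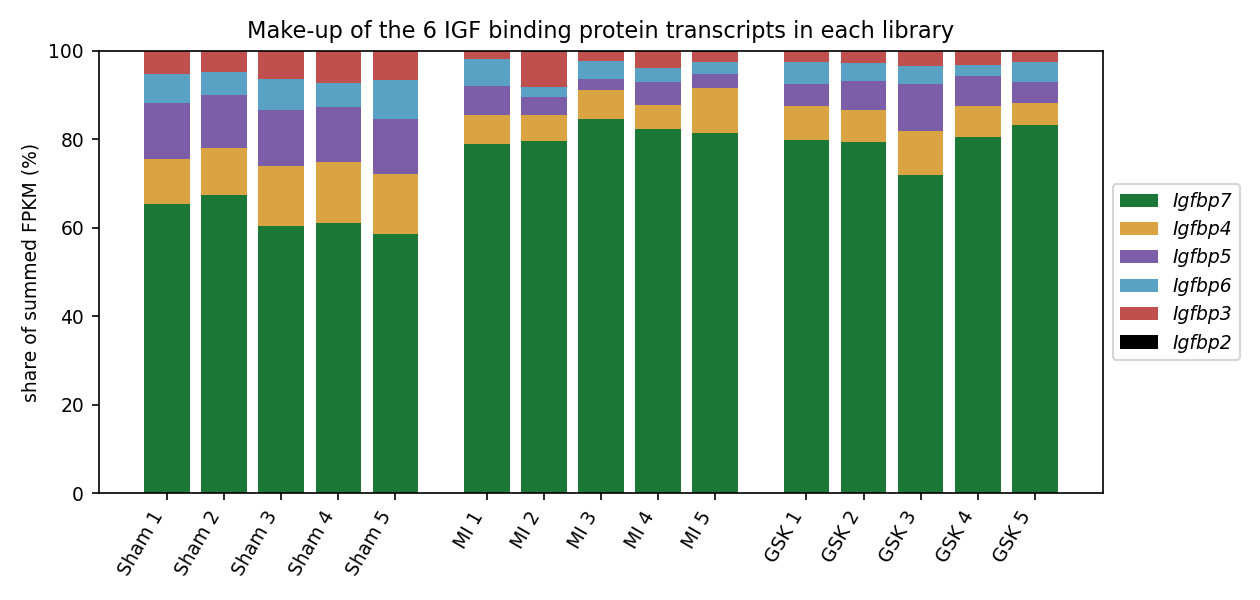
Share of the summed FPKM of Igfbp2 to Igfbp7 taken by each gene, as a percent of the sum in each of the 15 libraries, stacked to 100%. The green Igfbp7 part covers 58.6% to 67.5% of the Sham bars and at least 71.9% of each MI and GSK bar; Igfbp2 is too small to be seen.

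Other genes of the pathway were taken from 9 lists of 78 genes, of which 68 were tested. In MI minus Sham 16 were called higher and 22 lower (55.9% called, against 43.8% of all genes tested and 21.9% in each direction), with a median difference of -0.14, and in GSK minus MI none were called. In GSK minus Sham 6 were called higher and 8 lower (20.6% called, against 18.3% of all genes tested, of which 10.8% higher and 7.58% lower). Called genes of the pathway lay on both sides in the 2 comparisons with Sham. Of the pathway genes named below, Igf2, Insr, Adam12, Stc1, Ctgf, Ptprf, Irs1, Pik3r1 and Sesn1 overlap another annotated gene, so their values are uncertain to that extent.

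Other ligands and receptors were mostly too low to test. Igf2, the second IGF ligand, averaged 0.368 ± 0.246 FPKM in Sham, 0.104 ± 0.0478 in MI and 0.0822 ± 0.0479 in GSK libraries (SD, n = 5 each) and was not tested. Igfbp1, a liver binding protein beside Igfbp3 on chromosome 11, was listed at 0 in 14 of 15 libraries. The insulin receptor gene Insr fell, from 13.6 ± 0.836 FPKM in Sham to 10.9 ± 2.03 in MI (-0.31 ± 0.11 SE; limma adjusted p = 0.0323), a call that held in 20 of 28 alternatives.

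Growth hormone acts through its receptor and STAT5 to raise Igf1 in liver and other tissues. Of 7 tested genes of this input, 1 rose and 2 fell in MI, a share of calls near the 43.8% of all genes. Ghr, the growth hormone receptor, fell from 20.1 ± 2.31 FPKM in Sham to 11.3 ± 1.63 in MI and stood at 15.1 ± 2.91 in GSK libraries (MI minus Sham -0.78 ± 0.13 SE; limma adjusted p = 0.000253). Stat5b fell by 0.57 (limma adjusted p = 0.000375). Socs3, an inhibitor of cytokine receptors that is also induced by inflammation, rose from 2.35 ± 0.145 to 8.93 ± 2.95 FPKM (1.52 ± 0.20; adjusted p = 5.7e-05) and stood at 3.46 ± 1.18 in GSK libraries, where the difference from MI did not pass (-1.14; adjusted p = 0.075).

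Of 8 proteases that cut binding proteins, and their inhibitors, 6 were tested, and Adam12 and Stc1 rose. Neither reached 1 FPKM in any Sham library, so both passed the filter only through the infarcted groups, and their count is not read as a result about the list. Adam12, a metalloprotease reported to cut IGFBP3 and IGFBP5, rose from 0.124 ± 0.0327 to 1.74 ± 0.891 FPKM (1.23 ± 0.23 SE; limma adjusted p = 0.000681). Stc1 rose by 0.60 (adjusted p = 0.0167). Without the 3 libraries of high mitochondrial share 5 of these genes were tested, and 1 rose and 1 fell.

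Secreted relatives that carry an IGFBP domain showed the largest differences of the pathway lists, with a list median of 0.93 against -0.02 over all genes tested. Of 8 genes 5 were called higher and 1 lower, against 21.9% of all genes tested in each direction. Wisp1 and another of the genes called higher averaged under 1 FPKM in Sham and passed the filter through the infarcted groups. The count and the median are therefore not read as a result about the list. Ctgf, a matrix protein induced in fibrosis, rose from 32.3 ± 13.7 to 235 ± 143 FPKM (2.69 ± 0.42 SE; limma adjusted p = 0.0002). Wisp2 rose from 3.70 ± 1.67 to 40.0 ± 23.3 FPKM (2.99 ± 0.49; adjusted p = 0.000272), and Wisp1 rose by 1.29 (adjusted p = 0.00578). These genes are named here for the shared domain; the classical binding proteins are the high-affinity carriers of IGFs.

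Downstream of the receptor the called genes pointed both ways, as did the calls over all genes tested (21.9% in each direction). Of 10 adaptors and feedback genes, 4 rose and 4 fell. Irs1, an insulin receptor substrate, fell from 3.12 ± 0.179 to 1.56 ± 0.494 FPKM (-0.70 ± 0.10 SE; limma adjusted p = 0.000143), and Grb14, an adaptor that inhibits the insulin receptor, fell from 25.1 ± 2.68 to 15.6 ± 4.69 FPKM (-0.70 ± 0.18; adjusted p = 0.0055). Ptprf, a receptor phosphatase, rose from 1.04 ± 0.146 to 3.61 ± 1.11 FPKM (adjusted p = 0.000383).

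In the PI3K and AKT list 1 of 12 genes rose and 3 fell, against 21.9% of all genes tested in each direction. Pik3r1, a regulatory subunit of PI3K, fell from 14.6 ± 1.44 to 8.01 ± 0.855 FPKM (-0.79 ± 0.11 SE; limma adjusted p = 8.94e-05), and Akt2 fell from 35.4 ± 2.39 to 22.0 ± 4.90 FPKM (adjusted p = 0.000856). Inpp5d, a phosphatase of blood cells that opposes PI3K, rose from 1.30 ± 0.228 to 3.34 ± 1.01 FPKM (adjusted p = 0.00019). Of 12 genes of the mTOR complex 1 arm, 2 rose and 4 fell, a share of calls near the 43.8% of all genes tested. Ddit4 fell from 53.5 ± 21.1 to 27.7 ± 9.57 FPKM (-0.91 ± 0.28; adjusted p = 0.0153). Eif4ebp1, a repressor of translation, rose by 0.75 (adjusted p = 0.00684), and Tsc1, an inhibitor of the complex, fell by 0.41 (adjusted p = 0.000146).

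FOXO factors and genes they are known to induce moved in one direction where they were called, with 7 of 10 lower and none higher, against 21.9% of all genes called lower, and a list median of -0.63. Cardiomyocyte markers were lower in the same comparison in 6 of 8 cases, and their part in the FOXO list was not tested. Without the 3 libraries of high mitochondrial share 8 of the 10 FOXO genes were lower. The count of 7 was found with mitochondrial genes left out and totals made equal, and with quantile normalization. Klf15, a transcription factor of cardiomyocyte metabolism, fell from 26.0 ± 4.91 to 8.14 ± 3.55 FPKM and stood at 11.6 ± 2.38 in GSK libraries (MI minus Sham -1.63 ± 0.22 SE; limma adjusted p = 8.45e-05). Foxo4 fell from 23.8 ± 2.11 to 12.1 ± 1.97 FPKM (-0.94 ± 0.10; adjusted p = 2.19e-05), and Sesn1 fell from 35.2 ± 2.94 to 19.9 ± 4.21 FPKM (adjusted p = 0.000389). Igf2bp2, the one tested IGF2 mRNA binding protein, rose by 0.44 (adjusted p = 0.0353), a call that held in 16 of 27 alternatives. Without the 3 libraries of high mitochondrial share the Igf2bp2 difference was 0.41 and did not pass (limma adjusted p = 0.0854).

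**Figure D4:**
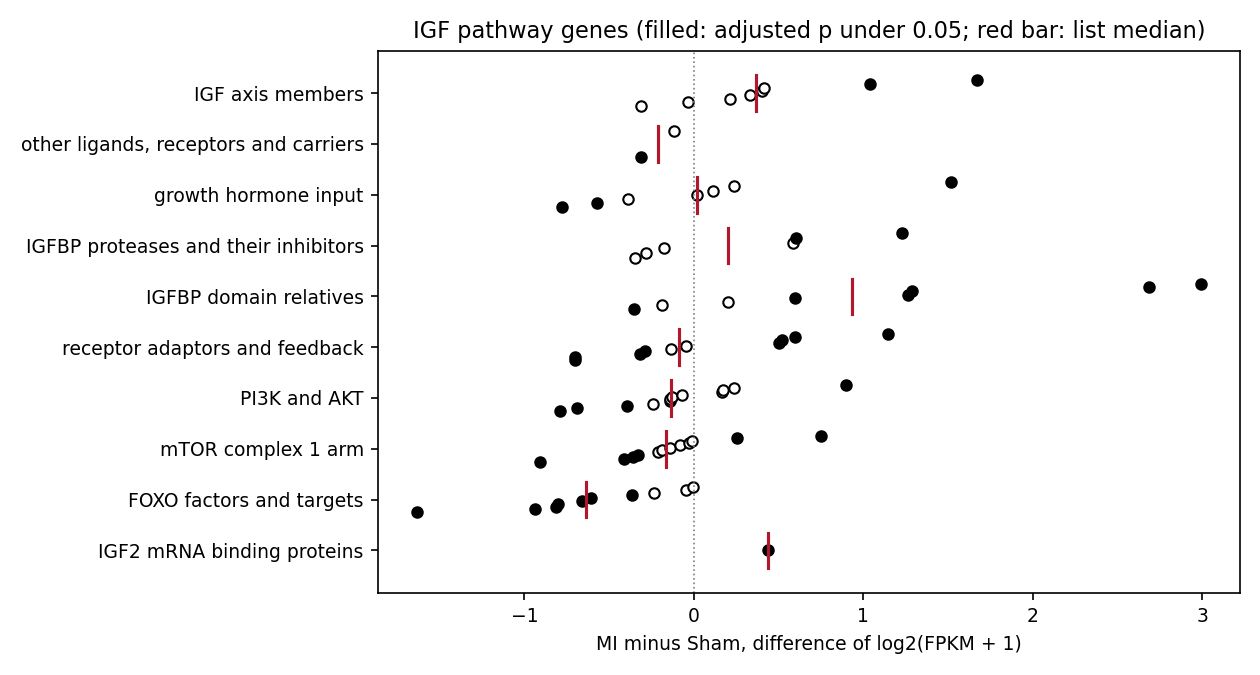
MI minus Sham difference of log2(FPKM + 1) for every tested gene of the IGF axis and of the 9 other pathway lists, 1 row a list and 1 point a gene; filled points passed the adjusted p threshold and red bars are list medians. The relatives with an IGFBP domain reach furthest to the right, at 2.69 and 2.99, and 7 of the 10 FOXO points are filled on the left.

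Markers of several cell types moved with the same comparison, and in bulk tissue fewer or more cells of a type cannot be told apart from less or more RNA per cell. Over all genes tested, 21.9% were called higher and 21.9% lower. In MI minus Sham 6 of 8 cardiomyocyte markers were lower and none higher, with summed levels of 17312 to 21992 FPKM in Sham, 10560 to 21729 in MI and 13678 to 19886 in GSK libraries. With quantile normalization 2 of them were lower and 1 higher. All 8 macrophage and monocyte markers were higher in MI (sums of 178 to 215 FPKM in Sham, 356 to 637 in MI and 296 to 626 in GSK libraries), as were 7 of 8 markers of activated fibroblasts (138 to 154, 256 to 972 and 170 to 566 FPKM). Of 8 fibroblast markers 4 were higher and 1 lower, with summed levels that overlapped between all groups.

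Endothelial markers were higher in 3 of 8 and lower in 1, a share of calls near the 43.8% of all genes tested. Mural cell markers were higher in 3 of 7 tested and lower in 2. Lymphocyte markers were too low to test in all 8 cases, at summed levels of 1.10 to 8.74 FPKM over the 15 libraries, and hepatocyte markers summed to 0.382 to 1.70 FPKM, with 4 of the 6 at a median under 0.1 FPKM in each group. The part of these cell types in the Igf1, Igfbp2 and Igfbp7 differences was not tested.

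The genes whose levels ran closest to a member over the 15 libraries were found by the root mean square difference of standardized log2 values, where 0 means an identical profile. Igfbp7 was closest to Cnn3, an actin-binding calponin, at 0.0884, and to Postn, a matrix protein of activated fibroblasts, at 0.140. Postn averaged 12.3 ± 4.44 FPKM in Sham, 227 ± 113 in MI and 132 ± 86.8 in GSK libraries (SD, n = 5 each). Igf1 was closest to Dse, an enzyme of dermatan sulfate synthesis, at 0.218, and to Pros1, the gene of protein S, at 0.243. Other members had no neighbour as close, with nearest distances of 0.357 for Igf1r with both Dusp4 and Gdf15, 0.429 for Igfbp3 with Acbd3, then Prkab2 at 0.440, and 0.488 for Igfbp6 with Cd80, then Nfatc4 at 0.511. For Igfbp4 they were 0.495 with Cpxm1 and 0.526 with Srpx, for Igfbp5 0.536 with Relch and 0.543 with Deptor, and for Igf2r 0.690 with Clec14a and 0.707 with Xpc. All of these distances rest on the same 15 libraries and hold the group differences within them, so they describe likeness of profile only.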

How the data were processed

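Poly-A RNA libraries were read as 150 nt paired ends from 1000 ng of RNA with a RIN above 8, per the labels' protocols. The authors deposited FPKM values with the length and position of each gene. HISAT2 2.0.5, featureCounts from Subread and R 3.5.1 were used with mm10, per the submitters' processing notes, which give no role or order; the annotation release and filters were not given in the sources used here. FPKM times gene length came in steps of 1 fragment, whole within 0.01 for 100% of values, and 1 fragment on 1 kb equals 0.0357 to 0.0478 FPKM. The total used for scaling is 23.6 M times a size factor from medians of ratios, so values are relative to the median gene in a library.

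Values were tested as log2(FPKM + 1) with limma 3.58.1 in R 4.3.3 (group means over all 15 libraries, eBayes with a mean trend), and every adjusted p of a gene comes from that fit unless another is named. The procedure was also run on simulated data with the same spread in each group, whereas the MI and GSK libraries here mostly spread more widely than Sham. That run was judged on the average over seeds, a choice made after the first seed was seen. It is not used as support for the calls. Igfbp2, under the filter, was tested by exact permutation. By rule, the text could name the 9 members and the 2 protein-coding genes nearest in profile to each tested member. It could also name up to 3 genes a pathway list by size of the called MI minus Sham difference. Igf2 and Igfbp1 fall outside this rule and were named after their values were seen. Igf1os, Airn, Gm34648 and Polr2b also fall outside it and are named because they overlap a member. Members and lists were chosen with earlier results of these data known. No libraries of a group were duplicates: the lowest chi-square per gene between any pair was 12.7. Each library was counted as 1 replicate, since the labels' protocols speak of independent mice. The animal name shared by a Sham and an MI library was taken to stand for different animals, since each heart was taken once. How animals were numbered is not given. Alternatives changed the pseudocount, filter, scaling, weights, tool, block and libraries.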

Additional observations from a re-analysis of the deposited data

Results flagged for a closer look

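In 3 of the 27 sets of 5 values, 9 genes in 3 groups, a library stood apart from its group, with a gap to the next value of more than 0.71 of the range of the group; chance gives about 1 in 20. Igfbp3 was 74.8 FPKM in MI replicate 2, against 10.7 to 28.0 in the other MI libraries. Igf1r was 2.53 FPKM in GSK replicate 5, against 2.04 to 2.14 in the other GSK libraries. Igfbp2 was 0.514 FPKM in GSK replicate 1, from 26 fragments, against at most 0.148 in the other GSK libraries.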

How the results depend on the processing

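Igf1 and Igfbp7 were called in MI minus Sham and in GSK minus Sham under all 28 alternatives, with adjusted p up to 0.00969 and 0.000668 in the first and 0.0353 and 0.0121 in the second. Neither was called in GSK minus MI (0.624 to 0.993 and 0.106 to 0.761).

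In this section, fits with mitochondrial genes left out also had the totals of the other genes made equal. In MI minus Sham that setting gave 0.27 for Igf1r, 0.0465 for Igf2r and 0.50 for Igfbp4 (adjusted p = 0.0404). Without MI 4, GSK 3 and GSK 4 Igf2r was 0.00981 and Igfbp4 0.49. Array weights gave 0.20 for Igf1r (adjusted p = 0.029), 0.46 for Igfbp4 (0.0255) and -0.45 for Igfbp5 (0.0254), and voom gave 0.31 for Igf1r. A filter at 5 FPKM gave 1508 genes higher and 1762 lower, with fewer genes tested. Leaving out 1 library at a time gave 0.14 to 0.26 for Igf1r, -0.10 to 0.0323 for Igf2r, -0.0798 to 0.59 for Igfbp3 and 0.32 to 0.52 for Igfbp4.

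In GSK minus MI a pseudocount of 0.1 called 3 genes higher and voom 2. Igf1 was 0.0610 without MI 4, GSK 3 and GSK 4, 0.0317 without the 2 GSK libraries whose names carry the letter G and 0.0270 with array weights. Without MI 4, GSK 3 and GSK 4 Igfbp6 was 0.11 and Igfbp2 -0.90. Leaving out 1 library gave 0 to 204 genes higher, 0 to 187 lower (204 and 187 without MI 1, 154 and 133 without GSK 5, 19 and 7 without MI 4, 6 and 1 without GSK 1) and -0.185 to 0.14 for Igf1; no tested member was called in any of these fits.

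In GSK minus Sham the count of genes higher, 1354, became 755 at 5 FPKM, 775 without the mixed Sham libraries, 781 without the letter G libraries, 2192 with array weights and 1664 with mitochondrial genes left out. The count lower, 954, became 592 with no filter, 629 at 5 FPKM, 595 with mitochondrial genes left out, 1620 from these 2 groups alone, 442 without the mixed Sham libraries, 596 without the letter G libraries and 2026 with array weights. Igfbp5 was 0.00519 with mitochondrial genes left out and 0.0314 without the letter G libraries. Leaving out 1 library gave 764 to 1550 genes higher, 412 to 1324 lower and -0.13 to 0.0185 for Igfbp2.

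With Igfbp7 left out of the sum, the shares in Sham, MI and GSK were 32.8%, 37.3% and 34.7% for Igfbp4, 33.6%, 22.8% and 31.4% for Igfbp5, 17.5%, 20.1% and 19.8% for Igfbp6, 15.9%, 18.9% and 13.9% for Igfbp3, and 0.162%, 0.843% and 0.127% for Igfbp2.

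Replicate numbers did not pair the libraries: 2 of 15 pairs had a correlation of deviations over 0.1 (-0.41 to 0.49), and 2 of 15 libraries correlated best with their own number. A fit with the replicate block called 2549 genes higher and 2472 lower in MI minus Sham, 0 in GSK minus MI, and 924 higher and 535 lower in GSK minus Sham, and changed no member's call. Counts for the gene lists under other scalings and without MI 4, GSK 3 and GSK 4, and the binding protein sums without them, were added after seeing the data. Other causes of these changes were not tested. Depth limits Igfbp2 alone among the members.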
